A study of Mus musculus with 7 samples.

Results

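Ptf1a, Rbpjl, Bhlha15, Nr5a2, Gata4 and Gata6 are transcription factors of the acinar cell, the pancreatic cell that makes and secretes digestive enzymes. They were chosen by name, and all 6 were found among the 35013 gene symbols of the count table. Their levels were set beside those of 5 reference enzymes, Cpa1, Pnlip, Cela1, Ctrb1 and Cel, to ask whether the RNA of acinar factors travels with that of acinar enzymes. Poly-A RNA of sorted β-cells was measured in 7 libraries, 1 per mouse. All 3 groups carried a Cre driven by an insulin promoter (RIP-Cre Herr), the reporter tdT fl/+ and a floxed allele of Aldh1a3, an aldehyde dehydrogenase that makes retinoic acid. The 2 KO_db/db mice were Lepr db/db and carried Aldh1a3 fl/fl, the alleles that Cre deletes in β-cells. The 2 db/db controls were Lepr db/db with Aldh1a3 fl/+, and the 3 lean db/+ controls were Lepr db/+ with Aldh1a3 fl/+. Mice without a functional leptin receptor (db/db) become obese and diabetic. Ages and sexes of the single mice are not given in the labels, and the sorting gate of these libraries is not given in the sources used here.

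Ptf1a and Rbpjl are subunits of PTF1, the complex that switches on the enzyme genes of acinar cells. In it the basic helix-loop-helix factor Ptf1a pairs with an E-protein on an E-box, and Rbpjl, the acinar relative of the Notch mediator Rbpj, binds a second box at a fixed distance on the helix. Nr5a2 (LRH-1) is an orphan nuclear receptor that works with PTF1 on enzyme genes. Bhlha15 (Mist1) is a basic helix-loop-helix factor that builds up the secretory apparatus, and Gata4 and Gata6 are zinc finger factors needed for the pancreas to form and, in the case of Gata6, for acinar cells to mature.

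The boxes of these factors were searched on both strands of the RefSeq promoters of GRCm38.p6, windows of 300 bases that end 50 bases past the start site. A window was given for 9 of the 11 genes and for 4 of the 6 factors, without Gata4 and Gata6. The RBPJ and RBPJL box TTCCCA was found in Ptf1a, Rbpjl, Cpa1, Pnlip, Ctrb1 and Cel, and in 25.6% of all 32851 windows. The E-box CANNTG was in 72.3% of all windows. An E-box and a TTCCCA box whose starts lay 11 or 22 bases apart were found in Rbpjl, Cpa1, Ctrb1 and Cel, and in 0.277% of all windows. These spacings were set after the sequences had been read, so the count is a description. The 4 stretches are shown because 1 factor and 3 enzymes share the arrangement. They are written 5′ to 3′ on the strand of the gene, with both boxes in capitals, the TTCCCA box reading TGGGAA where it lies on the opposite strand.
Rbpjl, chr2:164403064-164403143, plus strand: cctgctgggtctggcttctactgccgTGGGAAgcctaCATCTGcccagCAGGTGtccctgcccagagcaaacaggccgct
Cpa1, chr6:30639172-30639237, plus strand: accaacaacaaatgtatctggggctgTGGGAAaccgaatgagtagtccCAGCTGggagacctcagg
Ctrb1, chr8:111691168-111691247, minus strand: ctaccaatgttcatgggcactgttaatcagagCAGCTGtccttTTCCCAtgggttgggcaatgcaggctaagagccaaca
Cel, chr2:28563437-28563516, minus strand: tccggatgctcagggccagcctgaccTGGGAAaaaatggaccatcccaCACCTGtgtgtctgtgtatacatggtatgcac
In Rbpjl the TTCCCA box stands 11 bases before the first E-box and 22 bases before the second.

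The promoter of Bhlha15, a factor whose RNA did not move with the enzymes, is also shown. Its window held 3 E-boxes and no TTCCCA box. The windows of Nr5a2 and of the reference enzyme Cela1 held no TTCCCA box either. Whether the box bears on RNA levels was not tested. The 250 bases before the start are given with the E-boxes in capitals.
Bhlha15, chr5:144190036-144190285, plus strand: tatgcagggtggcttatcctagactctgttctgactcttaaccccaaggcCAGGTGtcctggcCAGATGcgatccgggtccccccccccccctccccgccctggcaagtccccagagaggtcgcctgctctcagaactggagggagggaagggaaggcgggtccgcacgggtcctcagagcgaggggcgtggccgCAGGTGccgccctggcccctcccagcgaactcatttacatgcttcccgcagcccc
The E-box form CAGCTG, a subset of CANNTG, was found in Cpa1, Cela1 and Ctrb1 (16.3% of all windows), and CATATG in none of the 9 genes (3.91%). The NR5A box AAGGTCA was in Cela1 and Cel (4.72%). The GATA box AGATAA was in Rbpjl, Nr5a2, Pnlip and Cela1 (11.2%). A match of letters is not a measured binding site.

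Total counts ran from 27496645 to 35852785 per library, and the detection floor, set at 3 counts, corresponded to 0.0717 to 0.123 CPM. CPM values are counts relative to the library size, scaled by TMM over the 7 libraries. The targeted gene Aldh1a3 had 4.97 and 7.89 CPM in KO_db/db against 98.4 and 194 CPM in db/db, a log2 fold change of -4.50 (SE 0.43, adjusted p = 0.0445). In db/+ it had 0.205, 0.0729 and 0.589 CPM, and KO_db/db was called higher than db/+ by 4.44 (SE 0.64, adjusted p = 0.00327). All adjusted p-values are those of edgeR's quasi-likelihood test, adjusted by the method of Benjamini and Hochberg over all genes tested, unless DESeq2 is named. The β-cell markers Ins1, Ins2, Iapp, Pdx1, Nkx6-1, Mafa, Slc2a2, Ucn3 and G6pc2 were present in all 7 libraries. The KO_db/db libraries stood apart from the others and from each other in acinar RNA. The 5 reference enzymes took 4.97% of the counts in KO_db/db mouse 1 and 0.529% in mouse 2. They took 0.0152% and 0.00970% in the db/db libraries and 0.000558% to 0.00886% in the db/+ libraries. The fold changes and summed ratios of the factors are therefore also given without KO_db/db mouse 1. In bulk RNA, fewer cells of a type and less RNA per cell cannot be told apart.

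Among the reference enzymes, Ctrb1 (chymotrypsinogen B) had 16708 and 1304 CPM in KO_db/db, 50.6 and 33.2 CPM in db/db and 0.205, 31.4 and 6.37 CPM in db/+. Cpa1 (carboxypeptidase A) had 9087 and 680 CPM in KO_db/db, 18.9 and 11.3 CPM in db/db and 0.123, 16.0 and 3.67 CPM in db/+. Pnlip (pancreatic lipase), Cela1 (elastase) and Cel (bile salt-dependent lipase) showed the same order of groups, with the KO_db/db libraries between 607 and 13644 CPM and the others at no more than 29.5 CPM. None of the 5 passed the threshold in KO_db/db against db/db, where the log2 fold changes were 7.75 to 8.70 and the adjusted p of edgeR 0.0844 to 0.0930. All 5 were higher there at an unadjusted p under 0.05 (20.9% of all genes in either direction), and DESeq2 called all 5 higher (5.48% of all genes). With only 1 of the KO_db/db mice kept, the log2 fold changes of edgeR were 4.96 to 6.10 for mouse 2 and 8.64 to 9.58 for mouse 1. All 5 were called higher in KO_db/db than in db/+, by 9.02 to 9.90 on the log2 scale (adjusted p of edgeR 0.00296 to 0.0124), where 20.5% of all genes were called higher.

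The PTF1 subunits were nearly absent outside the KO_db/db libraries. Both genes are on chromosome 2 of GRCm38, Ptf1a (ENSMUSG00000026735.2) between 19445663 and 19447501 and Rbpjl (ENSMUSG00000017007.9) between 164403141 and 164415448. Ptf1a had 26 and 10 counts in KO_db/db mouse 1 and mouse 2, which is 1.07 and 0.243 CPM. It had 0 counts in each of the 5 control libraries. Both KO_db/db libraries thus lay above the floor and all controls below it. Summed over each group, Ptf1a in KO_db/db was at least 13.9-fold higher than in the db/db group and at least 14.8-fold higher than in the db/+ group, with the floor of 3 counts taken over the control group. The exact 95% counting intervals of these ratios began at 10.7 and 11.4. Without KO_db/db mouse 1 these bounds were 6.14-fold and 6.53-fold, and the intervals began at 4.13 and 4.39.

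Rbpjl had 140 counts (5.75 CPM) in KO_db/db mouse 1 and 10 counts (0.243 CPM) in mouse 2. It had 0 and 1 count in db/db and 1, 1 and 0 counts in db/+. The KO_db/db libraries did not overlap with the controls, but nearly all of the RNA was that of mouse 1. With 150 counts against 1, the ratio of the summed levels of KO_db/db to db/db was 174 (exact 95% counting interval 30.7 to 6906). Against the 2 counts of db/+ it was 92.4 (25.1 to 770). Without KO_db/db mouse 1 the ratios were 18.4 (2.62 to 800) and 9.80 (2.09 to 92.0). These intervals cover counting error only.

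**Figure D1:**
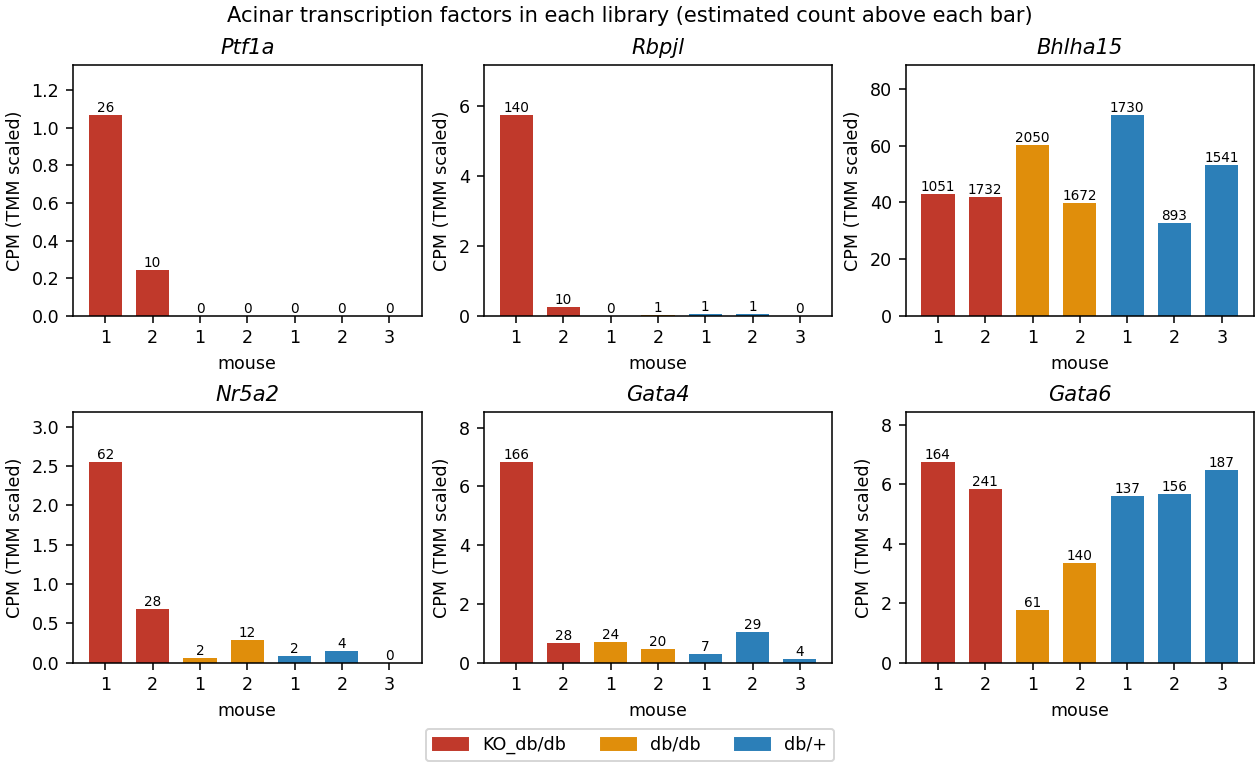
Level of each factor (y axis, CPM scaled by TMM, a separate linear scale per gene, starting at 0) in each of the 7 libraries (x axis, mouse number within the group), 1 bar per library with its estimated count above. Ptf1a, Rbpjl and Gata4 stand highest in KO_db/db mouse 1, Bhlha15 has bars of similar height in the 3 groups, and Gata6 is lowest in the 2 db/db libraries at 1.79 and 3.34 CPM.

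With all libraries of a pair kept, Ptf1a and Rbpjl did not pass the filter on low counts in any comparison and have no value in those fits. They passed it in some fits without 1 library. Without KO_db/db mouse 2 the log2 fold changes of Ptf1a and Rbpjl were 8.16 and 8.42 against db/db. Against db/+ they were 7.81 and 7.59. With 0 or 1 count in each control, these values depend on how counts of 0 are handled. Without that filter edgeR called both higher when KO_db/db was set against db/db, with adjusted p = 0.0144 for Ptf1a and 0.000600 for Rbpjl, where 4.1% of 19621 genes were called higher. DESeq2 also called both (adjusted p = 0.0132 and 0.000790), where it called 5.48% of genes higher. Against db/+ the adjusted p was 0.00571 and 0.000519 without the filter in edgeR, with 14.9% of genes called higher, and 0.00204 and 3.55e-05 in DESeq2, with 21% called higher. The annotation lists an antisense transcript, Ptf1aos, across Ptf1a, and the gene Matn4 on the opposite strand across Rbpjl. Matn4 had 0 to 14 counts per library, and whether counting used strand is not given in the sources used here.

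The partners that complete PTF1 were present in every library. Rbpj, which holds the place of Rbpjl before acinar cells mature, had 25.5 and 29.0 CPM in KO_db/db, 32.0 and 30.7 CPM in db/db and 30.9, 32.9 and 31.0 CPM in db/+. The E-proteins Tcf3, Tcf12 and Tcf4 had between 13.2 and 30.0 CPM in all 7 libraries. None of the 4 partners was called in KO_db/db against db/db, where their median log2 fold change was 0.12, between -0.20 for Rbpj and 0.49 for Tcf4. The median of all genes tested was -0.02. At an unadjusted p under 0.05, 1 of the 4 was higher (20.9% of all genes in either direction). DESeq2 called 0, where it called 5.48% of all genes higher. Tcf3 (0.51, SE 0.12, adjusted p = 0.0153) and Tcf4 (1.01, SE 0.13, adjusted p = 0.00206) were called higher in KO_db/db than in db/+ by edgeR's quasi-likelihood test, where 20.5% of 13228 genes were called higher.

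Nr5a2 (ENSMUSG00000026398.14, GRCm38 chromosome 1 from 136842571 to 136960448) was the factor called higher in KO_db/db than in lean mice. It had 62 counts (2.54 CPM) in KO_db/db mouse 1 and 28 counts (0.680 CPM) in mouse 2. It had 2 and 12 counts (0.0587 and 0.287 CPM) in db/db and 2, 4 and 0 counts in db/+. Both KO_db/db libraries were above every control, and mouse 2 lay nearer to the controls than to mouse 1. Against db/+ the log2 fold change was 4.34 (SE 1.01, adjusted p = 0.0165, edgeR's quasi-likelihood test), and it was 3.12 (adjusted p = 0.138 by edgeR) without KO_db/db mouse 1, which ends the call. Groups without overlap and with KO_db/db higher made up 31.7% of all genes in that comparison.

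Against db/db, Nr5a2 had a log2 fold change of 3.14 (SE 1.03, adjusted p = 0.188 by edgeR), or 1.93 without KO_db/db mouse 1. Its summed level in mouse 2 alone was 3.69 times that of db/db (exact 95% counting interval 1.88 to 7.57). The corepressor Nr0b2 (SHP), a known target of Nr5a2, had 19 and 2 counts in KO_db/db and 0 in the 5 other libraries. Its relatives Nr0b1 and Nr5a1 had 0 counts in all 7.

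Gata4 and Gata6 parted from each other. Gata4 (ENSMUSG00000021944.15, bases 63198922 to 63271692 of GRCm38 chromosome 14) had 166 counts (6.81 CPM) in KO_db/db mouse 1 and 28 counts (0.680 CPM) in mouse 2. In db/db it had 24 and 20 counts (0.704 and 0.478 CPM), and in db/+ 7, 29 and 4 counts (0.286, 1.06 and 0.138 CPM). Only mouse 1 stood out, and mouse 2 lay between the controls. The log2 fold change was 2.64 against db/db (SE 1.09, adjusted p = 0.251 by edgeR) and 2.90 against db/+ (SE 1.08, adjusted p = 0.0739 by edgeR). Without KO_db/db mouse 1 these values were 0.20 and 0.46. Without KO_db/db mouse 2 they were 3.53 and 3.77. The summed level of mouse 2 alone was 1.17 times that of db/db (exact 95% counting interval 0.703 to 1.93).

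Gata6 (ENSMUSG00000005836.10, bases 11052064 to 11085635 of GRCm38 chromosome 18) had 164 and 241 counts (6.73 and 5.85 CPM) in KO_db/db. It had 61 and 140 counts (1.79 and 3.34 CPM) in db/db and 137, 156 and 187 counts (5.61, 5.69 and 6.47 CPM) in db/+. The db/db libraries were the lowest, and the KO_db/db libraries lay within or just above the range of the lean mice. Against db/+, Gata6 was called lower in db/db, with a log2 fold change of -1.21 (SE 0.31, adjusted p = 0.0229 by edgeR), in a comparison where 18% of 13406 genes were called lower and 30.7% had db/db below db/+ without overlap. The call was lost without db/db mouse 1 (adjusted p = 0.0545 by edgeR) and without any 1 of the db/+ mice (0.0567 to 0.0583).

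In KO_db/db against db/db the log2 fold change of Gata6 was 1.28 (SE 0.37, adjusted p = 0.166 by edgeR), and 1.18 without KO_db/db mouse 1. Both KO_db/db libraries were above both db/db libraries, as they were for 28.4% of all genes. Against db/+ the value was 0.09 (SE 0.18, adjusted p = 0.720 by edgeR), and it turned to -0.0145 without KO_db/db mouse 1. The cofactor Zfpm1 (FOG1), which binds GATA factors, had 18.3 and 11.6 CPM in KO_db/db, 5.14 and 8.08 CPM in db/db and 1.35, 2.188 and 3.53 CPM in db/+. Against db/+ it was called higher by edgeR in KO_db/db (2.66, SE 0.39, adjusted p = 0.00340) and in db/db (1.47, SE 0.41, adjusted p = 0.0313, with 19.9% of genes called higher there), and not in KO_db/db against db/db (1.17, SE 0.33, adjusted p = 0.159). Gata1, Gata2, Gata3, Gata5 and Zfpm2 did not pass the filter in KO_db/db against db/db. A transcript on the opposite strand overlaps Gata6, and its reads cannot be told apart from those of Gata6 without strand.

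Bhlha15 was the most abundant of the factors and did not separate the groups. It is annotated as ENSMUSG00000052271.7 on chromosome 5 of GRCm38 from 144190286 to 144194441. Bhlha15 had 1051 and 1732 counts (43.1 and 42.0 CPM) in KO_db/db. It had 2050 and 1672 counts (60.2 and 39.9 CPM) in db/db and 1730, 893 and 1541 counts (70.8, 32.6 and 53.3 CPM) in db/+. The KO_db/db libraries lay inside the range of the controls and within 1.03-fold of each other. The log2 fold change was -0.24 against db/db (SE 0.22, adjusted p = 0.564 by edgeR) and -0.29 against db/+ (SE 0.29, adjusted p = 0.462 by edgeR). Between db/db and db/+ it was -0.08 (SE 0.33, adjusted p = 0.879 by edgeR). Without KO_db/db mouse 1 the values for KO_db/db were -0.25 against db/db and -0.31 against db/+. The sign against db/db turned without db/db mouse 1, to 0.0884.

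Levels were divided by the exon bases of each gene, taken over all its annotated transcripts together, which need not be the length of the RNA present. Bhlha15 then had 9.32 to 20.3 CPM per kilobase over the 7 libraries. In KO_db/db mouse 1, Gata4 had 1.75 CPM per kilobase, Gata6 1.03, Rbpjl 1.00, Ptf1a 0.708 and Nr5a2 0.431. In mouse 2 the order of the levels was Bhlha15 (12.0 CPM per kilobase), Gata6 (0.899), Gata4 (0.174), Ptf1a (0.161), Nr5a2 (0.115) and Rbpjl (0.0423). Rbpjl thus went from the fourth place in mouse 1 to the last in mouse 2. Rbpjl and Ptf1a both had 10 counts in mouse 2, so their order there comes from their exon bases, 5732 and 1508. With 1 library on each side, neighbours in this order cannot be tested.

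**Figure D2:**
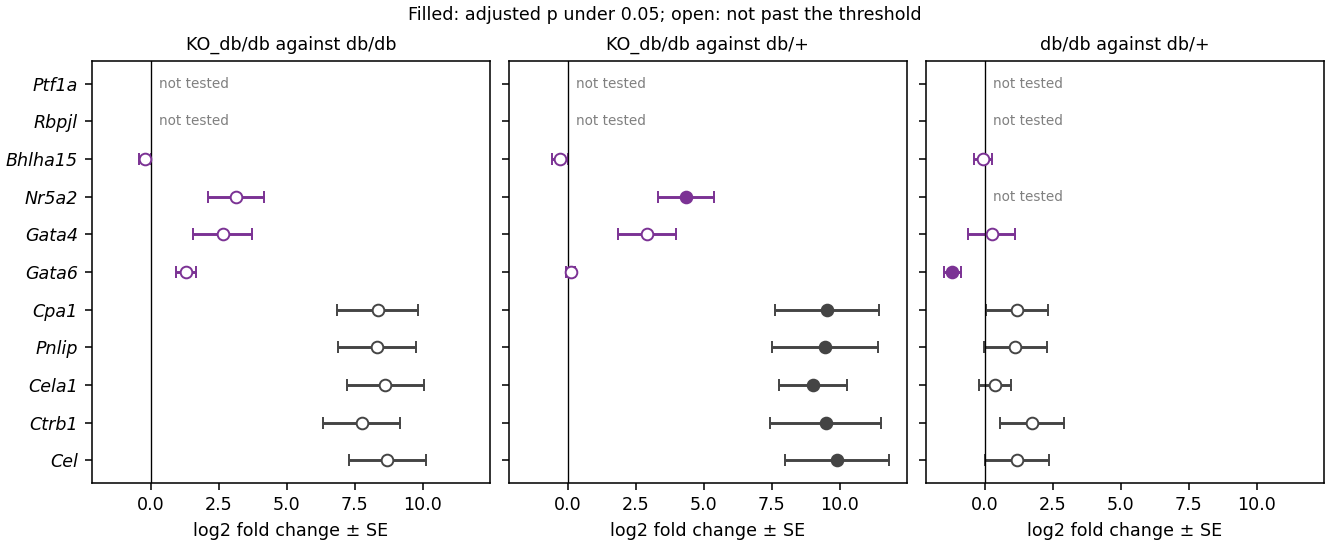
Log2 fold change (x axis) of each factor (purple) and each reference enzyme (grey) in the 3 comparisons, with bars of 1 SE from edgeR's quasi-likelihood test; filled points have an adjusted p under 0.05. The factors lie between -1.21 and 4.34, the enzymes between 7.75 and 9.90 in both comparisons of KO_db/db, and Ptf1a and Rbpjl have no point because they did not pass the filter on low counts.

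In KO_db/db against db/db no factor passed the threshold among the 4 that were tested, where 0.126% of 13486 genes were called higher. Nr5a2 and Gata6 were below an unadjusted 0.05, as were 20.9% of all genes in either direction. DESeq2 called Ptf1a, Rbpjl, Nr5a2 (adjusted p = 0.0412) and Gata6 (0.0456) higher, where it called 5.48% of all genes higher. Without the filter, edgeR called all 6 but Bhlha15 higher, where 4.1% of all genes were called higher. The log2 fold changes of the 4 tested factors were below those of the 5 enzymes, the nearest being Nr5a2 at 3.14 against 7.75 for Ctrb1. The PTF1 subunits lay nearer to the enzymes where they were fitted. Rbpjl had 7.47 (SE 1.30) in edgeR without the filter and 7.84 (SE 1.86) in DESeq2, and Ptf1a 7.51 (SE 1.88) and 7.06 (SE 2.12), where Ctrb1 had 7.74 and 7.75. With 0 or 1 count in db/db, these fitted values depend on how counts of 0 are handled and are no bounds.

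The distance between factors and enzymes was also taken within each library, as the log2 count of a factor minus the mean log2 count of the 5 enzymes, which needs no scaling between libraries. The log2 level relative to the enzymes in KO_db/db minus that in db/db was -7.68 for Bhlha15, -6.12 for Gata6, -5.60 for Gata4 and -4.30 for Nr5a2. In each case both KO_db/db libraries lay below both db/db libraries. The exact two-sided permutation p was 0.33 for each, the smallest that 2 against 2 libraries allow. The enzymes rose by 7.75 to 8.70 on the log2 scale in that comparison. A factor that did not change would thus also show a large negative difference, so neither the separation nor the p-value tests the factors. The same holds against db/+, where the enzymes rose by 9.02 to 9.90. Against db/+ the differences were -10.4 for Bhlha15, -10.0 for Gata6 and -7.58 for Gata4, each with an exact permutation p of 0.1, the smallest that 2 against 3 allow. For Nr5a2 the difference was -5.80 with an exact permutation p of 0.2. The differences against db/+ depend in part on the 0.5 added to each count, since Cel had 0 counts in db/+ mouse 1 and Nr5a2 in db/+ mouse 3. With 2 added instead they were -10.1 for Bhlha15, -9.82 for Gata6, -7.56 for Gata4 and -6.55 for Nr5a2. Without KO_db/db mouse 1 they were -8.58, -8.35, -7.44 and -4.95, and against db/db -5.90, -4.42, -5.45 and -3.45. The difference of Nr5a2 against db/+ was -3.72 without db/+ mouse 1. For Ptf1a and Rbpjl, at 0 or 1 count in every control, no difference is given.

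The 2 KO_db/db mice differed by more than 10-fold in acinar enzymes, which allows a second comparison. The level in mouse 1 divided by that in mouse 2 was 11.1 for Cel, 11.4 for Cela1, 11.9 for Pnlip, 12.8 for Ctrb1 and 13.4 for Cpa1. Over the 13351 genes with at least 10 counts in the 2 libraries together the median ratio was 0.995, with 0.568 at the 5th and 2.05 at the 95th percentile. A ratio of at least 4 was reached by 318 of them (2.38%). No replicate stands behind a ratio of 1 library to 1, so the intervals given are exact 95% counting intervals and nothing more.

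The factors stood on either side of this difference. Rbpjl had a ratio of 23.7 (12.5 to 50.5) and Gata4 of 10.03 (6.69 to 15.5), and both intervals reached the range of the enzymes. Gata4 in mouse 2, at 0.680 CPM, lay within the range of the controls, though the enzymes of mouse 2 were far above the controls. Ptf1a had a ratio of 4.40 (2.05 to 10.2) and Nr5a2 of 3.74 (2.36 to 6.08). Their intervals were above 1 and ended below 11.1, the lowest ratio of an enzyme. Gata6 had a ratio of 1.15 (0.938 to 1.41) and Bhlha15 of 1.03 (0.950 to 1.11), near the median of all genes. The 3 factors at a ratio of at least 4 were Rbpjl, Gata4 and Ptf1a, of 6. Scaled by raw totals, which leaves in the share that acinar RNA took of mouse 1, all ratios were lower. That of Ptf1a was then 3.39, which leaves 2 factors at a ratio of at least 4, and those of Bhlha15 and Gata6 went below 1, to 0.791 and 0.887.

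**Figure D3:**
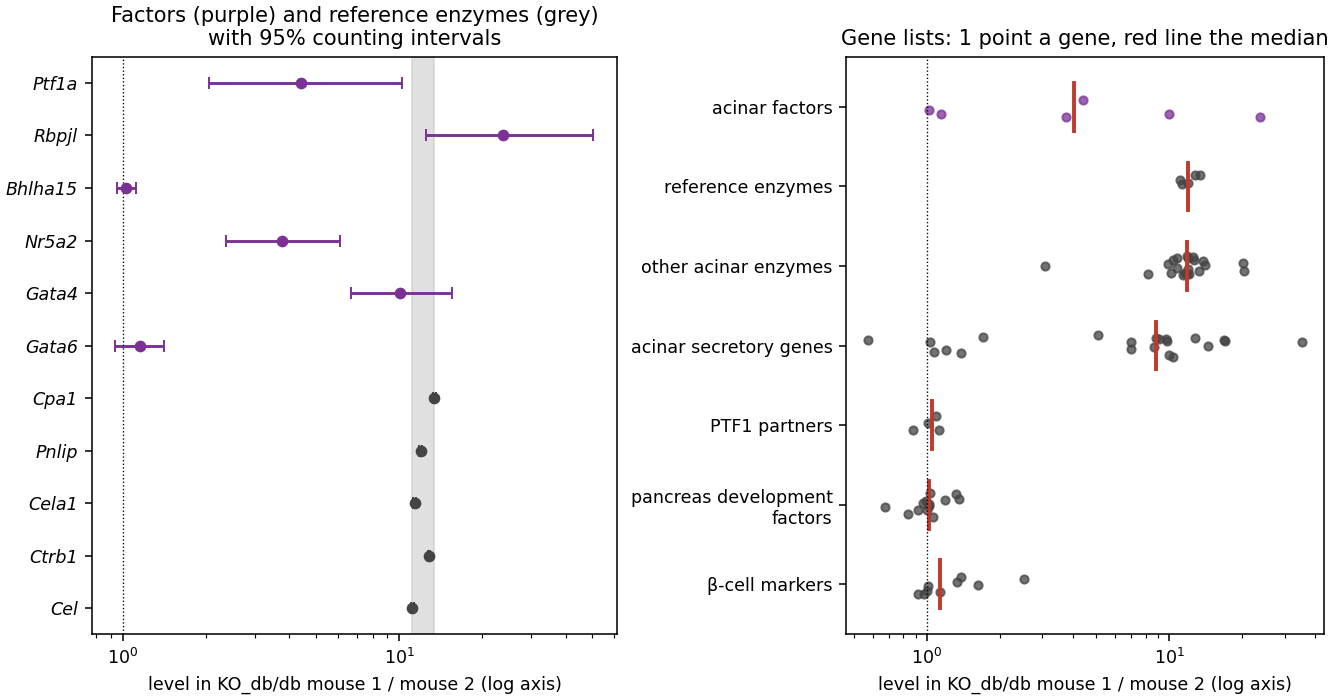
Level in KO_db/db mouse 1 divided by that in mouse 2 (x axes, log scale, dotted line at 1), on the left for each factor (purple) and enzyme (grey) with exact 95% counting intervals and the range of the 5 enzymes shaded, on the right for the genes of 7 lists, 1 point per gene with the median as a red line (genes with 0 counts in mouse 2 are not drawn). Bhlha15 and Gata6 sit at 1, Rbpjl and Gata4 reach the shaded range, Ptf1a and Nr5a2 lie between, and the PTF1 partners and pancreas development factors lie around 1.

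Per 100000 counts of the 5 enzymes, Gata4 had 12.1 counts in KO_db/db mouse 1 (exact 95% counting interval 10.4 to 14.1) and 14.8 in mouse 2 (9.81 to 21.3). These intervals overlapped. The level of Gata4 in mouse 2 was 0.680 CPM, within the 0.138 to 1.06 CPM of the controls. The overlap therefore does not show that Gata4 rose with the enzymes in mouse 2. Rbpjl had 10.2 (8.62 to 12.1) in mouse 1 and 5.27 (2.53 to 9.69) in mouse 2, with intervals that overlapped as well. The interval of its ratio between the mice, 12.5 to 50.5, began above the ratios of Cel, Cela1 and Pnlip. It began below those of Ctrb1 and Cpa1. Ptf1a had 1.90 (1.24 to 2.79) and 5.27 (2.53 to 9.69), the mouse with less enzyme RNA having the higher value. These intervals overlapped, while the interval of its ratio between the mice, 2.05 to 10.2, ended below the ratios of the 5 reference enzymes. Nr5a2 had 4.54 (3.48 to 5.82) and 14.8 (9.81 to 21.3), which did not overlap.

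The other factors had far more counts per enzyme count in mouse 2. Gata6 had 12.0 per 100000 enzyme counts in mouse 1 and 127 in mouse 2, and Bhlha15 had 76.9 and 913. In the db/db libraries Bhlha15 had 47652 and 50697 per 100000, Gata6 1418 and 4245, Gata4 558 and 606, and Nr5a2 46.5 and 364.

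**Figure D4:**
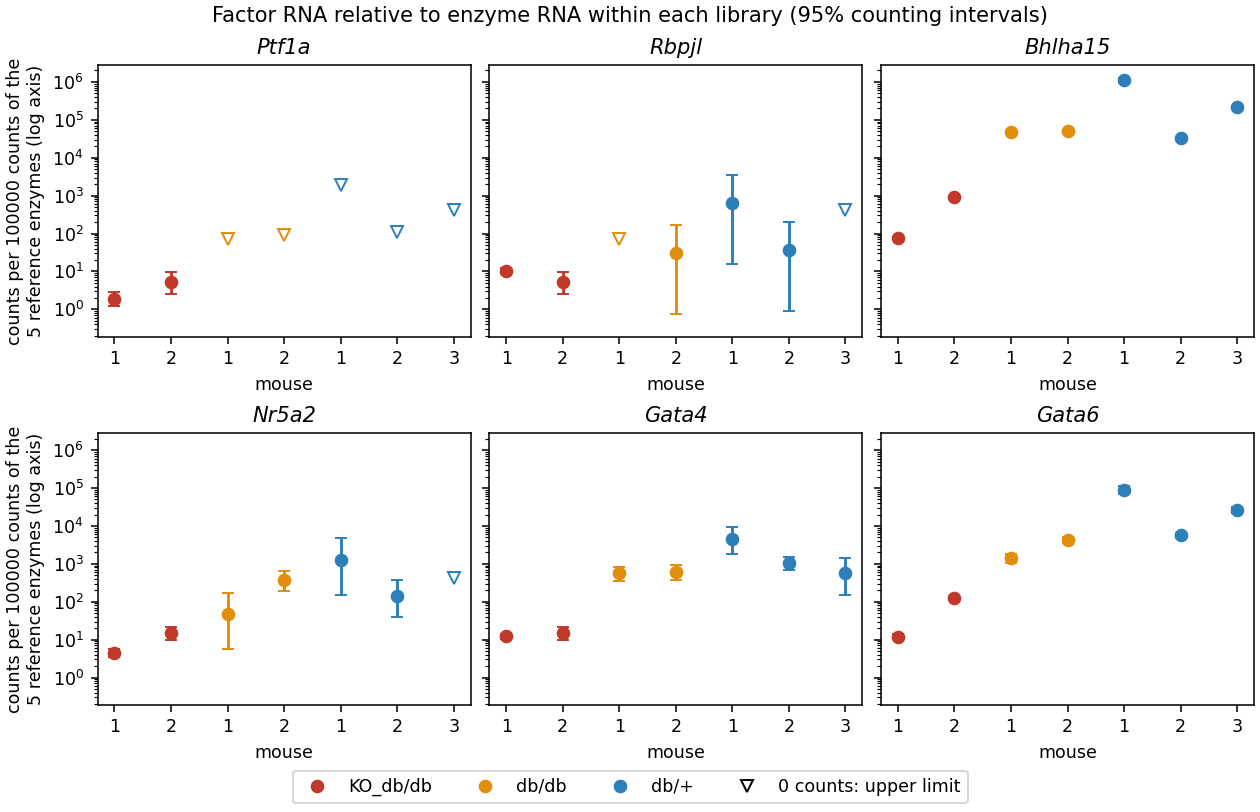
Counts of each factor per 100000 counts of the 5 reference enzymes (y axis, log scale) in each library (x axis, mouse number within the group), with exact 95% counting intervals; open triangles mark the upper limit that a count of 0 allows (3 counts). Gata4 has 12.1 and 14.8 in the 2 KO_db/db mice, while Bhlha15 and Gata6 differ between them (76.9 and 913, 12.0 and 127), and the controls lie higher for Bhlha15, Gata4 and Gata6. The CPM of Gata4 in KO_db/db mouse 2 was within the range of the controls.

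The wider acinar program was read from lists of genes. Another 22 acinar enzymes, among them trypsins, amylases and colipase, had a summed level of 92267 and 7835 CPM in KO_db/db, 216 and 112 CPM in db/db and 3.03 to 113 CPM in db/+. The list was not complete in the controls, with 2 and 1 of the 22 at 0 counts in the db/db libraries (Ctrc and Amy2a1, and Cela3a) and 12, 2 and 4 in the db/+ libraries. The median ratio of KO_db/db mouse 1 to mouse 2 was 11.9, and 21 of the 22 were at a ratio of at least 4. The lowest was 3.08, that of Cela3a. None of the 22 was called by edgeR in KO_db/db against db/db, where 20 were higher at an unadjusted p under 0.05 (20.9% of all genes in either direction) and DESeq2 called 19 higher (5.48% of all genes). The median log2 fold change was 8.03, from 0.21 for Prss1 to 16.0 for Amy2a1, a fitted value. All 21 tested were called higher against db/+ (median 9.77, from 5.59 for Ctrc to 12.0 for Klk1), where 20.5% of all genes were called higher. Trypsins and amylases have near-identical copies, so the counts of Prss1 and Amy2a1 are uncertain.

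The 21 genes of the acinar secretory apparatus were also split. The ratio of the KO_db/db mice was at least 4 for 15 of them, such as Sycn (syncollin, 14.5), Gp2 (the zymogen granule glycoprotein, 9.73) and Cckar (the cholecystokinin receptor, 6.95), up to 35.5 for Aqp8. It was near 1 for Rab3d (1.03), Copz2 (1.08), Rab26 (1.20), Chrm3 (1.38) and Gatm (1.70), and 0.572 for Rab27b. Rab3d and Rab26, granule GTPases known as targets of Bhlha15, had 172 to 309 CPM and 0.729 to 1.31 CPM over the 7 libraries. None of the 19 tested was called by edgeR in KO_db/db against db/db, where 14 were higher and 3 lower at an unadjusted p under 0.05 (20.9% of all genes in either direction) and DESeq2 called 13 higher (5.48% of all genes). The log2 fold changes had a median of 5.98 (from -1.12 for Rab27b to 9.70 for Pdia2), and 13 of 18 were called higher against db/+, where 20.5% of all genes were (median 8.79, or 8.57 with genes at 0 in db/+ set to their bound, from -0.52 for Gatm to 13.0 for Serpini2, which is a fitted value and no bound).

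The listed factors of pancreas development, among them the β-cell markers Pdx1 and Nkx6-1, mostly did not follow the enzymes. Of the 16 listed, 14 had at least 10 counts in the KO_db/db libraries, and the median ratio of mouse 1 to mouse 2 was 1.02, with 0.918 for Pdx1, 1.01 for Nkx6-1 and 1.37 for Hes1, the highest. The exception was Gfi1, a repressor that acinar cells need to mature, with 14 counts in mouse 1 and 0 in the 6 other libraries. None of the 13 tested was called in KO_db/db against db/db, where the median was 0.02 and the values ran from -0.48 for Mnx1 to 2.66 for Sox9. At an unadjusted p under 0.05, 3 were higher and 1 lower (20.9% of all genes in either direction). DESeq2 called 0, where it called 5.48% of all genes higher. Against db/+, Pdx1 (log2 fold change -0.57, SE 0.11, adjusted p = 0.0100) and Nkx6-1 (-0.85, SE 0.15, adjusted p = 0.00590) were called lower by edgeR, where 17.9% of all genes were called lower.

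Markers of other cell types were read beside the factors. The 7 ductal markers had a summed level of 305 and 347 CPM in KO_db/db, 290 and 432 CPM in db/db and 186 to 202 CPM in db/+, most of it Krt7. Within the list, Krt19 (9.36 and 0.534 CPM), Muc1 (23.2 and 1.70 CPM) and Cftr (1.15 and 0.0971 CPM) were higher in KO_db/db mouse 1 than in mouse 2, with ratios of 17.5, 13.7 and 11.8, as high as those of the enzymes. Cftr had 0 to 3 counts in each control library. Sox9, a factor of ductal cells, had 24 and 42 counts, a ratio of 0.966. The 6 Reg genes, made by acinar cells and by injured pancreas, had a summed level of 3039 and 338 CPM in KO_db/db and 1.07 to 8.95 CPM in the controls, with a median ratio of 6.09. The part of ductal or acinar cells in the levels of Gata4, Nr5a2, Rbpjl and Ptf1a was not tested.

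Other lists did not have a summed level that separated KO_db/db mouse 1 from mouse 2 to that degree. The summed level in mouse 1 and mouse 2 was 297330 and 225161 CPM for 9 β-cell markers, 1654 and 1180 CPM for 6 α-cell markers, and 1231 and 971 CPM for 4 δ- and PP-cell markers. It was 13.1 and 11.2 CPM for 7 endothelial, 2.67 and 3.91 CPM for 9 stellate and 21.6 and 33.4 CPM for 7 macrophage markers. Most of the macrophage sum was C1qa, with 20.8 and 32.0 CPM. Within the stellate list, Acta2 had 1 count in mouse 1 and 46 in mouse 2. Of the markers in all these lists, Ucn3, a marker of mature β-cells, was called in KO_db/db against db/db, higher by 1.79 (SE 0.18, adjusted p = 0.0459 by edgeR).

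Among genes with a mean of at least 5 CPM, those whose pattern over the 7 libraries was most like that of Gata6 were Abat (r = 0.997), Aamp (0.992) and Nbeal1 (0.991). For Bhlha15 they were Tex2 (0.948), Vps37c (0.937) and Cpox (0.922). For Gata4 they were Kl (0.969), Ssh3 (0.956) and Gstp1 (0.941), for Nr5a2 Egln1, Eif4ebp2 and Traf6 (each 0.981), for Rbpjl Nt5c2 (0.975), Ric1 (0.966) and Ppp6r1 (0.964), and for Ptf1a Cog7 (0.993), Scap (0.991) and Diaph2 (0.985). Ptf1a and Rbpjl had 10 or more counts in 2 of the 7 libraries, so their values of r rest on a step between the 2 KO_db/db libraries and controls at 0 or 1 count, where the prior count sets the level. Nr5a2 had 10 or more counts in 3 libraries. Of the 18, the one with the largest step between the KO_db/db mice was Kl, with 90.4 and 45.4 CPM. The r of each factor with the mean of the 5 enzymes was also taken. Over the 7 libraries it was 0.906 for Ptf1a, 0.868 for Nr5a2, 0.836 for Rbpjl and 0.823 for Gata4. For Gata6 it was 0.198 and for Bhlha15 -0.502. Without KO_db/db mouse 1 these values were, in the same order, 0.794, 0.698, 0.644, 0.555, -0.0737 and -0.578. The enzymes also stepped up from the controls to KO_db/db, so these values do not test a link within a group.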

How the data were processed

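The data were 7 poly-A libraries of sorted β-cells, 1 per mouse, grouped by the sample titles (KO_db/db, 2, db/db, 2, and db/+, 3). The authors deposited estimated counts per gene symbol, made with kallisto 0.44.0 on GRCm38 after bcl2fastq 2.19 (versions per the submitters' processing notes), rounded to whole numbers and not normalized. The annotation release is not given in the sources used here. kallisto divides reads that fit several transcripts, so near-identical genes are uncertain. Of 35013 symbols, 14637 were at 0 in all libraries, 0 were blank and 0 columns were left unused. Coordinates came from GENCODE M21, which held 34222 of the symbols.

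Groups were compared in pairs, each fit holding the libraries of its pair alone, in R 4.3.3 with edgeR 4.0.16 (limma 3.58.1): filterByExpr with a minimum count of 10, TMM, the quasi-likelihood test, and Benjamini-Hochberg adjustment over all genes tested with a threshold of 0.05. The SE was taken from the fold change and the F statistic. Fold changes are those of the group named before over the group named after. Levels are CPM scaled by TMM over the 7 libraries, with a prior count of 2 for correlations. Ratios of 2 libraries or summed groups carry exact (Clopper-Pearson) 95% intervals of counting error. The level relative to the enzymes added 0.5 to each count and was tested by exact permutation. The fits were tested on simulated data before use. The mice are separate animals, 1 library each, and no library was a copy of another.

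Alternatives were RLE scaling, scaling without acinar and Reg genes, DESeq2 1.42.0 (which the study's methods name), raw totals, the filter on low counts left out, a block for the mouse number, a joint fit of all 7 libraries, and leaving out each library. The factors, enzymes and lists were chosen with earlier results of these data known. Named genes are the factors, the enzymes, the members of a list past the threshold or at its ends, and the 3 genes most alike each factor. Other genes of the lists were named after their values were seen. Some genes of the pancreas development list are not reported here by name.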

Additional observations from a re-analysis of the deposited data

How the results depend on the processing

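In KO_db/db against db/db, 43 genes were called, against 1401 with DESeq2, 1570 without the filter on low counts, 818 with all 7 libraries in one fit, 22 with the replicate block and 0 to 225 when 1 library was left out (0 without db/db mouse 1, 86 without KO_db/db mouse 1, 225 without KO_db/db mouse 2, 212 without db/db mouse 2). Of the 6 factors, 0 were called, against 4 with DESeq2 (5.48% of all genes called higher) and 5 without the filter (4.1% called higher). Of factors and enzymes together, 0 were called, against 9 with DESeq2, 10 without the filter, 2 with all 7 libraries in one fit and 0 to 7 when 1 library was left out. In KO_db/db against db/+, 5081 genes were called and 3060 (without KO_db/db mouse 1) to 4725 when 1 library was left out. There 1 factor was called (20.5% of all genes called higher), against 4 with DESeq2 (21% called higher), 4 without the filter (14.9% called higher) and 0 with the block. Of factors and enzymes together 6 were called, against 1 with the block and 5 to 9 when 1 library was left out. In db/db against db/+, 5069 genes were called and 3331 to 4394 when 1 library was left out. There 1 factor (Gata6) was called, and 0 to 1 when 1 library was left out, as for factors and enzymes together. The cause of these moves was not tested, beyond the genes that no filter adds and the libraries that are missing.

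Signs turned for small values. For Bhlha15 the fits without 1 library ran from -0.50 to 0.0884 (without db/db mouse 1) against db/db for KO_db/db. For db/db against db/+ they ran from -0.40 to 0.206 (without db/+ mouse 1; 0.187 without db/db mouse 2), with 0.0183 under the block. For Gata6 in KO_db/db against db/+ they ran from -0.0145 (without KO_db/db mouse 1) to 0.18. For Gata4 in db/db against db/+ they ran from -0.209 (without db/+ mouse 3; -0.0577 without db/db mouse 1, -0.0265 without db/+ mouse 1) to 1.46 (without db/+ mouse 2), with -0.0274 under the block. The mouse numbers did not pair the libraries: deviations of same-numbered libraries from their group means correlated at -0.0588 for KO_db/db with db/db, at -0.102 and -0.0782 for KO_db/db with db/+, and at 0.0584 and 0.0759 for db/db with db/+. With the block Nr5a2 in KO_db/db against db/+ had 3.49 (adjusted p = 0.0591 by edgeR). Levels of the factors relative to the enzymes kept their direction under each alternative run, a direction that the rise of the enzymes largely set. With raw totals the ratio of the KO_db/db mice was 0.791 for Bhlha15 and 0.887 for Gata6. Counts of 10 to 28 in KO_db/db mouse 2 limit what can be read from Ptf1a, Rbpjl, Nr5a2 and Gata4.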
